A study of Homo sapiens with 4 samples.

Results

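Gene deserts are long stretches of the genome without a protein-coding promoter, and the peaks and loops described here are those that lie inside them. A peak was counted as a desert peak if its summit lay at least 500 kb from every protein-coding transcript start of GENCODE 44, and a loop as a desert loop if both of its anchors did. On chromosomes 1 to 22 this gave 1404 of 94628 SMC1 peaks, which is 1.48% of the list (95% Wilson interval 1.41 to 1.56%), and 1265 of 61417 CTCF peaks, which is 2.06% (1.95 to 2.18%). Of the loops, 4 of 27785 under the SMC1 label and 100 of 79406 under the CTCF label met it. The rule used position alone, so strength, overlap, motifs and looping were free to differ.

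All values came from HG00731, an untreated human lymphoblastoid cell line, that is B cells immortalised with Epstein-Barr virus and grown in culture. SMC1 was captured by HiChIP after dual cross-linking with formaldehyde (FA) and the longer linker EGS (FA-EGS HiChIP), and CTCF by HiChIP after formaldehyde alone (FA-HiChIP), so target and cross-linking changed together and cannot be told apart. Each target had 2 biological replicates, which the authors pooled into 1 peak list and 1 loop list. Differences are therefore set against counting error only, no test between targets or regions is possible, and the line is 1 cell line. The lists hold no expression values, so the cell type label could not be checked against marker genes.

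Cohesin is a ring-shaped complex, of which SMC1 is a core subunit, and it is thought to form loops by reeling in chromatin until it meets a barrier. CTCF is the zinc-finger protein that forms most such barriers in vertebrates, and it halts cohesin mainly when its asymmetric binding motif points into the loop, so that a loop typically ends at a pair of motifs facing each other, called convergent. Deserts are AT-rich, sparsely transcribed and often late-replicating, and some of them hold distant enhancers of developmental genes. HiChIP recovers read pairs that join a protein-bound site with another site nearby in the nucleus, from which both 1-dimensional peaks and loops are called.

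The motif sites at the strongest desert peaks and loops are shown because they carry the orientation on which the loop results turn. A 19 bp motif learned from the 3000 strongest CTCF summits outside deserts had the consensus NNCCANNAGGGGGCGNNNN, and each line gives 1 match of at least 10 bits with 5 bp on either side, 5′ to 3′ on the motif strand, from hg38, with the matched bases in capitals.
SMC1 peak between PTPRC and NR5A2, intron of the lncRNA LINC02789, chr1:199243628-199243656, minus strand, 11.3 bits: agatcCTCCTCCAGATGGTGCTGCtgcct
SMC1 and CTCF peak between CNTNAP3C and FOXD4L5, in no gene, chr9:64369271-64369299, minus strand, 16.2 bits: gcgcgCGCCAGCAGGTGGGGCTGCagctc
SMC1 peak between LMO4 and PKN2, intron of the lncRNA PKN2-AS1, chr1:88180692-88180720, plus strand, 15.0 bits: agattGACCAGCAGATGGTGCTACagagc
CTCF peak between MAT2B and TENM2, intron of the lncRNA LINC03000, chr5:164504338-164504366, minus strand, 15.3 bits: catcaGAACAGCAGGGGGAGCTATggtat
Left anchor of the loop between NCAM2 and MRPL39, introns of the lncRNAs ENSG00000227090 and LINC01692, chr21:24896309-24896337, plus strand, 14.3 bits: gatacATCCAGCAGGGGGCTGTCTtagtc
Right anchor of the same loop, intron of LINC01692, chr21:25039932-25039960, minus strand, 13.5 bits: aacagAGACAGAAGATGGCACTGTtgact
Desert anchor of a loop to NKX3-2, in no gene, chr4:12852444-12852472, plus strand, 11.7 bits: caaatAACCACTAGAGGGAAATGTtgctc
Promoter anchor of the same loop, in no gene, chr4:13549093-13549121, minus strand, 16.6 bits: gggatGCCCGCTAGGTGGCGCTCGtcctc
Desert anchor of a loop to MARCKS, in no gene, chr6:113306728-113306756, plus strand, 18.4 bits: aagccTGCCAGCAGAGGGCAGTGCaagaa
Promoter anchor of the same loop, intron of MARCKS, chr6:113859097-113859125, minus strand, 17.1 bits: tttggCACCGGCAGGGGGCGCTGTgcctc
In each of these 3 loops the left site lay on the plus strand and the right site on the minus strand, the convergent arrangement. The loop between NCAM2 and MRPL39 had both anchors in a desert, and the other loops joined a desert to a promoter. They are examples. Of all desert loops with a motif at both anchors, 35 of 60 labelled CTCF and 1 of 4 labelled SMC1 were convergent.

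The 500 kb rule marked 372 deserts that together held 347 Mb of known bases, 12.6% of the 2756 Mb on these chromosomes. Desert lengths are counted in known bases throughout, so gaps of unknown bases do not add to them. By this count the median was 540 kb, 117 deserts held at least 1 Mb and the longest held 5.25 Mb. A lncRNA gene covered 22.6% of the desert bases, and the body of a coding gene, whose starts lay farther off, covered 3.999%. Of 18390 lncRNA genes, 1007 started in a desert, a smaller share than the 12.6% of bases that deserts hold. The deserts thus lacked coding starts but held some annotated lncRNA genes, whose transcription in these cells is not known from the lists.

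Many of the longest deserts were largely locally repeated sequence, which touched several results. In 18.8% of desert bases, against 3.06% of the other bases, the 100 kb window held under 95% distinct words of 24 bases, and these are called repeat-array windows. They held 31 of the 1404 desert SMC1 peaks, or 2.21% against 3.25% of all SMC1 peaks, but 150 of the 1265 desert CTCF peaks, or 11.9% against 3.87% of all, and 25 of those 150 CTCF peaks overlapped an SMC1 peak. What part the arrays play in each result was not tested otherwise.

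The loop lists need a second caution. In the list labelled CTCF, none of the 79406 loops lacked an SMC1 peak at its anchors while 3654 lacked a CTCF peak, and in the list labelled SMC1 none of the 27785 loops lacked a CTCF peak while 11 lacked an SMC1 peak. The authors called loops with the peaks of the same sample, so these counts run against the labels. The study also reports more loops for SMC1 than for CTCF, whereas the larger list carries the CTCF label. The loop labels are therefore most likely exchanged. Loops and anchors labelled CTCF then belong to the SMC1 FA-EGS sample, and those labelled SMC1 to the CTCF FA sample. Both lists are still named by their labels, which name a list and not the captured protein, and results are given for both. The list labelled CTCF held 2666327 read pairs in its loops and the one labelled SMC1 788356.

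Peaks of both proteins became sparse with distance from coding starts. Deserts held 4.05 SMC1 peaks per Mb (exact Poisson 95% interval 3.84 to 4.27) against 38.7 per Mb elsewhere (38.4 to 38.9), a ratio of 0.105. For CTCF the densities were 3.65 per Mb (3.45 to 3.86) and 24.96 per Mb (24.8 to 25.2), a ratio of 0.146. Without repeat-array windows the ratios were 0.126 and 0.160. Deserts had the lower density on 22 of 22 chromosomes for SMC1 and on 22 of 22 for CTCF, with ratios from 0.0302 on chromosome 17 to 0.257 on chromosome 20 for SMC1, and from 0.0551 on chromosome 19 to 0.310 on chromosome 20 for CTCF.

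The density fell from each distance band to the next. SMC1 went from 72.8 peaks per Mb under 10 kb from a coding start to 20.9 at 100 to 250 kb, 11.6 at 250 to 500 kb, 5.14 at 500 kb to 1 Mb and 2.45 beyond 1 Mb. CTCF went from 48.7 to 13.1, 7.42, 4.198 and 2.84 over the same bands. Beyond 1 Mb the order of the lists turned, with CTCF at 2.84 per Mb (2.57 to 3.14) and SMC1 at 2.45 (up to 2.73), whose intervals overlapped. Without repeat-array windows there were 325 SMC1 and 290 CTCF peaks there, and the order turned back.

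**Figure D1:**
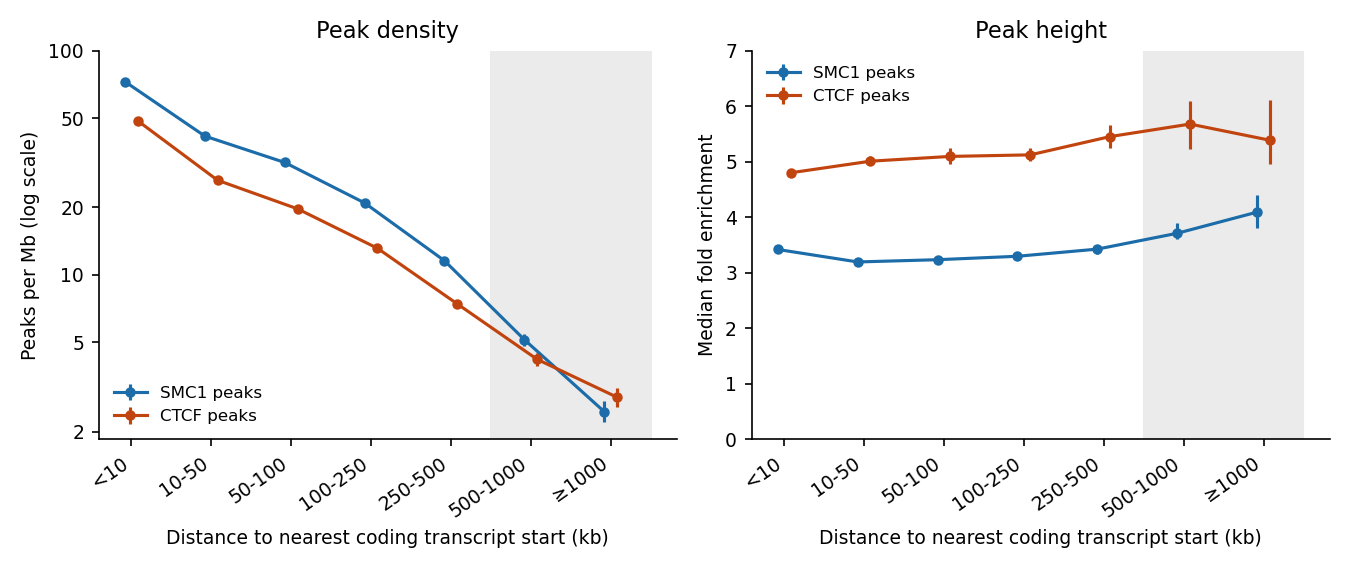
Peaks per Mb on a log scale (left) and median fold enrichment (right) against distance to the nearest coding transcript start in kb, for SMC1 (blue) and CTCF (orange); bars are 95% exact Poisson intervals and rank intervals of the median, and grey marks deserts. Density falls from 72.8 to 2.45 per Mb for SMC1 and from 48.7 to 2.84 for CTCF, while the median fold enrichment is 3.71 and 4.09 in the desert bands for SMC1 and 5.68 and 5.39 for CTCF, where it was 3.43 and 5.45 at 250 to 500 kb.

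The SMC1 list lost more of its peaks than the CTCF list. There were 0.901 CTCF peaks for each SMC1 peak in deserts (95% interval 0.835 to 0.972) and 0.645 elsewhere (0.639 to 0.652). Without repeat-array windows the desert value was 0.812 (0.750 to 0.879), still above the 0.642 of the rest. The median distance to the next peak of the same list was 15.4 kb for desert SMC1 peaks against 5.07 kb elsewhere, and 30.3 kb for desert CTCF peaks against 8.20 kb.

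Desert peaks were few, and their fold enrichment was not lower than that of other peaks. The median fold enrichment, the pileup at the summit over the local background, was 3.81 (3.71 to 3.97) for desert SMC1 peaks against 3.30 (3.29 to 3.31) elsewhere, and higher in deserts on 21 of 22 chromosomes. For CTCF it was 5.53 (5.24 to 5.97) against 4.95 (4.93 to 5.00), higher on 17 of 22. All peaks had passed the q-value limit of peak calling, and what part that limit plays in these medians was not tested. Significance did not follow, since the median -log10 q was 12.6 in deserts against 13.6 for SMC1 and 17.2 against 19.4 for CTCF. The share of peaks with a -log10 q of at least 50 was 13.1% against 18.1% for SMC1 and 24.5% against 31.2% for CTCF, with 18.1% and 31.1% over the whole lists. Desert CTCF peaks were narrower, with a median width of 409 bp against 460 bp, whereas the intervals of SMC1 widths overlapped at 640.5 bp (604 to 681) and 657 bp (653 to 662).

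The peaks nearest to the limit are given as a description, with distances to the nearest coding transcript start, which belongs to the named gene. The SMC1 peaks just inside lay 500359 bp from the MYT1L start and 500472 bp from the GRM8 start, with fold enrichments of 2.47 and 2.67. The latter peak lay in an intron of GRM8. The SMC1 peaks just outside lay 499947 bp from BCKDHB and 499661 bp from DIRAS2, with 2.34 and 4.91. The CTCF peaks just inside lay 500225 bp from AMY1C and 500397 bp from CPS1, with fold enrichments of 3.79 and 6.68, and those just outside lay 499681 bp from DIRAS2 and 499592 bp from C9orf72, with 7.94 and 8.81.

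The strongest desert peaks fell into 2 kinds, and the first kind lay in repeats. The top SMC1 peak by -log10 q, 1869, lay at chr3:93470361-93470794 in the desert between EPHA3 and PROS1, in a window with 10.5% distinct words, with a fold enrichment of 20.9. A CTCF peak overlapped it with a fold enrichment of 24.6. The top CTCF peak by that measure, 1346, lay at chr1:125180004-125180564 between SRGAP2C and H3-7, with a fold enrichment of 32.2 and no motif above 2.27 bits in the peak. Another such site at chr17:26603676-26604316 between KCNJ18 and WSB1 was called in both lists, at fold enrichments of 24.6 for SMC1 and 28.3 for CTCF, and the CTCF peak at chr4:49657508-49657753 between CWH43 and DCUN1D4 at 33.04 had no SMC1 peak. None of these 4 sites held a motif match of 10 bits or overlapped a loop anchor.

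The second kind lay outside repeat-array windows, which measure repetition within 100 kb and not copies elsewhere in the genome, and held a motif. The SMC1 peak between PTPRC, which encodes the leukocyte surface phosphatase CD45, and NR5A2, a nuclear receptor gene, spanned chr1:199242371-199244055, 604491 bp from the PTPRC start. Its fold enrichment was 10.6, the CTCF peak on it had 13.1, and it overlapped anchors of both loop lists. The peak beside PKN2, a protein kinase gene, reached 9.79 for SMC1 and 15.4 for CTCF, 503485 bp from the PKN2 start. It also overlapped anchors of both lists.

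The peak between CNTNAP3C and FOXD4L5 was higher still, at 23.8 for SMC1 and 34.4 for CTCF with the 16.2-bit match shown above, yet it overlapped no anchor. In the same desert an SMC1 peak at chr9:63816606-63818421, inside the pseudogene DUX4L50, had 7.68. Among CTCF peaks outside those windows the next were chr21:23968738-23969153 between NCAM2 and MRPL39 at 18.7, where SMC1 had 8.19, and the LINC03000 site at 18.99, where SMC1 had 9.75. Each of these sites carried peaks of both proteins.

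SMC1 peaks in deserts overlapped a CTCF peak more often than elsewhere. The share was 55.6% (781 of 1404, interval 53.0 to 58.2%) against 46.9% elsewhere and 47.0% over the whole list, and it was higher in deserts on 20 of 22 chromosomes. It rose from 45.9% at 250 to 500 kb to 54.2% at 500 kb to 1 Mb and 60.2% beyond 1 Mb. CTCF peaks went the other way, with 64.4% (815 of 1265) on an SMC1 peak in deserts against 76.0% elsewhere and 75.8% over the list, lower on 17 of 22 chromosomes.

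The CTCF difference shrank without repeat-array windows, to 70.9% against 76.0%, and beyond 1 Mb, where 27.3% of the CTCF peaks lay in such windows, the share was 54.6% with and 70.0% without them. The SMC1 share without them was 55.1%. When the other peaks were weighted to the -log10 q deciles of the desert peaks, their share became 44.2% for SMC1 and 76.3% for CTCF.

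Shared desert peaks were the stronger ones. Desert SMC1 peaks on a CTCF peak had a median fold enrichment of 5.02 (4.76 to 5.14) and the 623 without one had 2.95 (2.86 to 3.05), against 4.63 and 2.76 elsewhere. Desert CTCF peaks on an SMC1 peak had 6.99 (6.70 to 7.38) and the 450 without one 3.93 (3.79 to 4.08), against 6.21 and 3.26 elsewhere. Among desert peaks with a -log10 q of at least 50, 96.7% of 184 SMC1 peaks and 93.5% of 310 CTCF peaks were shared, against 94.7% and 99.0% of peaks as strong elsewhere. Without repeat-array windows the CTCF value in deserts was 98.6%.

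The CTCF motif lay under a similar share of SMC1 peaks in deserts and elsewhere and under a lower share of CTCF peaks in deserts, and the sequence around desert peaks held fewer matches. A match of at least 10 bits, on either strand, lay somewhere in 46.7% of desert SMC1 peaks, against 48.1% of other SMC1 peaks and 48.1% of all. Beside the desert peaks, in an interval of the same width, it was 14.1%, against 29.4% beside the others and 29.2% beside all. For CTCF peaks the shares were 53.1% in deserts and 58.3% elsewhere, with 58.2% over the list, and 9.49% and 24.4% beside them, 24.1% beside all. Without repeat-array windows the CTCF shares were 58.8% and 58.0%.

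Close to the summit the shares were smaller. Within 50 bp of it, 12.9% of desert SMC1 peaks and 12.5% of the others, 12.5% of all, held a match, and 16.2% of desert CTCF peaks against 19.2% of the others and 19.1% of all. Without repeat-array windows the CTCF shares near the summit were 18.1% and 19.01%, a difference of -0.895 points (-3.07 to 1.495). With a minimum of 7 bits the difference, desert minus rest, was -5.28 points (-7.48 to -2.94) for SMC1 and -10.9 (-13.3 to -8.36) for CTCF. The windows 1 kb to either side held one in 2.49 and 2.64% of desert SMC1 peaks and in 6.01 and 5.96% of the others, 5.96 and 5.91% of all. For CTCF they held one in 1.98 and 1.66% of desert peaks and in 6.06 and 6.09% of all. The median GC content of the 100 bp on either side of the summit was 40.8% for desert SMC1 peaks against 46.3%, and 40.3% for desert CTCF peaks against 47.3%. In windows 1 kb away it was 37.6% against 44.3%, and 37.6% against 45.0%, so desert summits stood above their surroundings in GC as other summits did.

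Within deserts, as elsewhere, the motif followed the sharing. Among desert SMC1 peaks on a CTCF peak 70.6% held a match anywhere in the peak, and among those without one 16.9%, against 73.8% and 25.5% elsewhere. Among desert CTCF peaks the shares were 66.1% and 29.6%, against 67.0% and 30.7% elsewhere. Of the 450 desert CTCF peaks without SMC1, 125 lay in repeat-array windows.

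**Figure D2:**
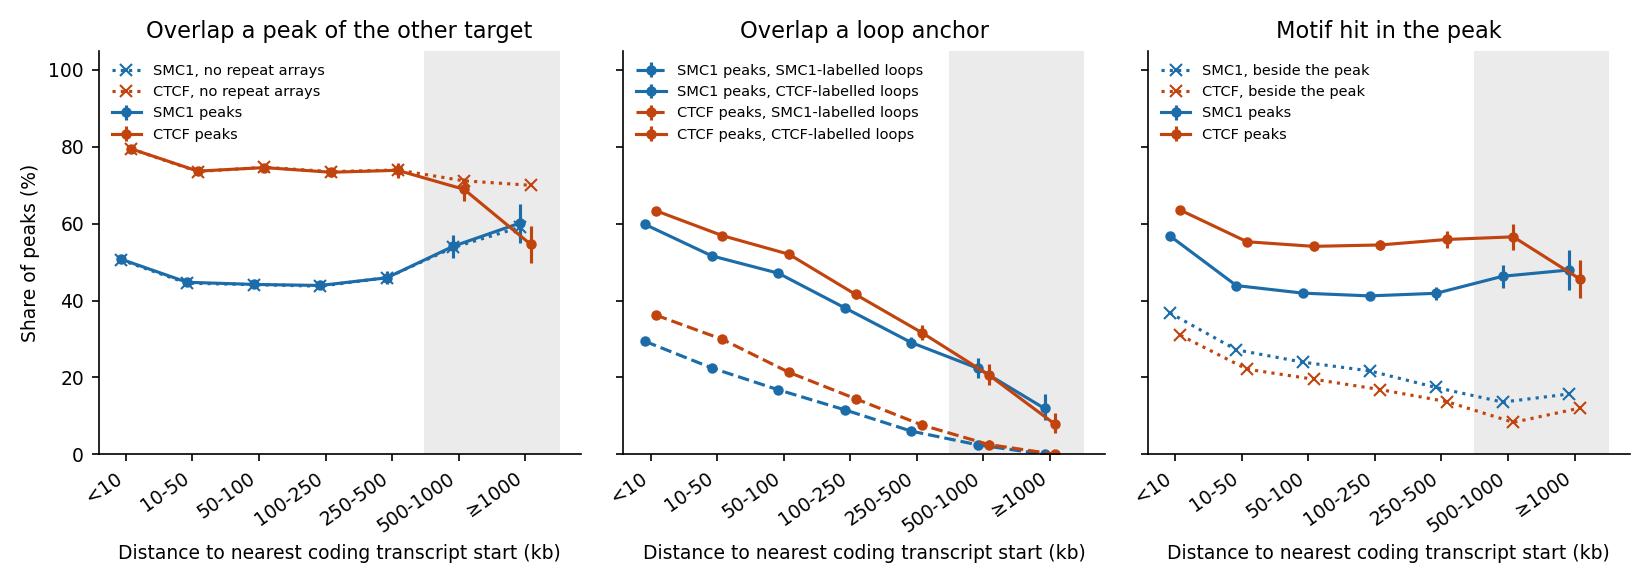
Share of SMC1 (blue) and CTCF (orange) peaks in percent against distance to the nearest coding transcript start in kb that overlap a peak of the other target (left, crosses without repeat-array windows), overlap a loop anchor (middle) or hold a motif match anywhere in the peak (right), with 95% Wilson intervals and deserts in grey. SMC1 overlap with CTCF rises to 60.2% beyond 1 Mb, anchor overlap falls to between 0 and 11.9% beyond 1 Mb, and motif shares stay at 45.6 to 56.6% in deserts while the share beside the peak (crosses) is 8.31 to 15.7%.

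Long non-coding RNA genes held many of the desert peaks. A summit lay inside a lncRNA gene in 32.98% of desert SMC1 peaks and 29.0% of desert CTCF peaks, against 16.9% and 16.7% of all peaks, while lncRNA genes covered 22.6% of the desert bases. The share was higher still at 250 to 500 kb from coding starts, at 37.0% for SMC1 and 33.5% for CTCF. Few lay at lncRNA promoters, since 3.92% and 3.79% were within 1 kb of a lncRNA transcript start, against 5.97% and 6.12% of all peaks. A coding gene body held 6.695% and 5.69% of desert summits, against 60.2% and 56.9% of all.

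The desert SMC1 summits lay in 239 lncRNA genes and the CTCF summits in 231. The most SMC1 summits of any, 12 each, lay in LINC00298, LINC00299 and LINC03000. LINC00298 and LINC00299 overlap on chromosome 2 (chr2:7922425-8278186 and chr2:7988683-8488284), and LINC03000 lies on chromosome 5 (chr5:164296696-165171643). The desert between RNF144A and ID2, into which LINC00298 and LINC00299 reach, held 19 SMC1 peaks in all. The counts of LINC00298 and LINC00299 therefore share summits. With 7 CTCF summits each, the leading genes of that list were LINC03000, GUSBP1, ENSG00000228566 and ENSG00000254092, of which the longest spans 1028783 bp. GUSBP1 belongs to a duplicated family, so its reads may be shared with copies.

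Deserts differed widely from each other. Of the 372, 91 held no peak of either list, but only 5 of the 117 of at least 1 Mb were empty. Over those 117, SMC1 density ranged from 0 to 19.5 per Mb with a median of 2.38 and quartiles of 0.903 and 5.57. CTCF density ranged from 0 to 19.1 with a median of 2.66 and quartiles of 1.39 and 4.73.

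Most of the 8 longest deserts were largely arrays. The one between ZNF716 and ZNF722 on chromosome 7 held 5.25 Mb, 88.6% of it in repeat-array windows, with 1 SMC1 and 2 CTCF peaks. The one between ANKRD30B and ROCK1 on chromosome 18 held 5.15 Mb and no peak. Between KCNJ18 and WSB1 there were 4 SMC1 and 10 CTCF peaks in 4.55 Mb, and between EPHA3 and PROS1 4 and 4 in 3.79 Mb. Between ZNF337 and DEFB115 there were 20 and 39 in 4.38 Mb, and between ZNF254 and UQCRFS1 15 and 10 in 4.07 Mb. The stretch before TPTE on chromosome 21 held 14 and 29 in 3.71 Mb, of which only 20.1% lay in repeat-array windows. Only the desert between PCDH7 and ARAP2 on chromosome 4, with 4.47 Mb, held no array window, and it had 7 SMC1 and 8 CTCF peaks, 5 of them shared in each list.

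In some deserts most SMC1 peaks lacked a CTCF peak, and 3 examples are given, named after their values were seen. Over the whole list 47.0% of SMC1 peaks had one, so most lacked one there as well. Other deserts were alike. Between RNF144A and ID2, 2 of 19 SMC1 peaks were on a CTCF peak, and between TRIB2 and LRATD1 4 of 17. The desert between POT1, which encodes a telomere protein, and GRM8, a glutamate receptor gene, had the highest SMC1 density of those of at least 1 Mb. It held 23 SMC1 peaks, 22 of them without a CTCF peak, spread over 935 kb at a median of 2.65-fold, and 1 CTCF peak at 9.04-fold. The desert downstream of MYC, which encodes a growth-promoting transcription factor, held 15 SMC1 peaks, 11 without CTCF, and 5 CTCF peaks at a median of 13.7-fold. The desert between CITED2, a transcriptional co-regulator gene, and GJE1 held 23 SMC1 peaks, 14 without CTCF, and 13 CTCF peaks.

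**Figure D3:**
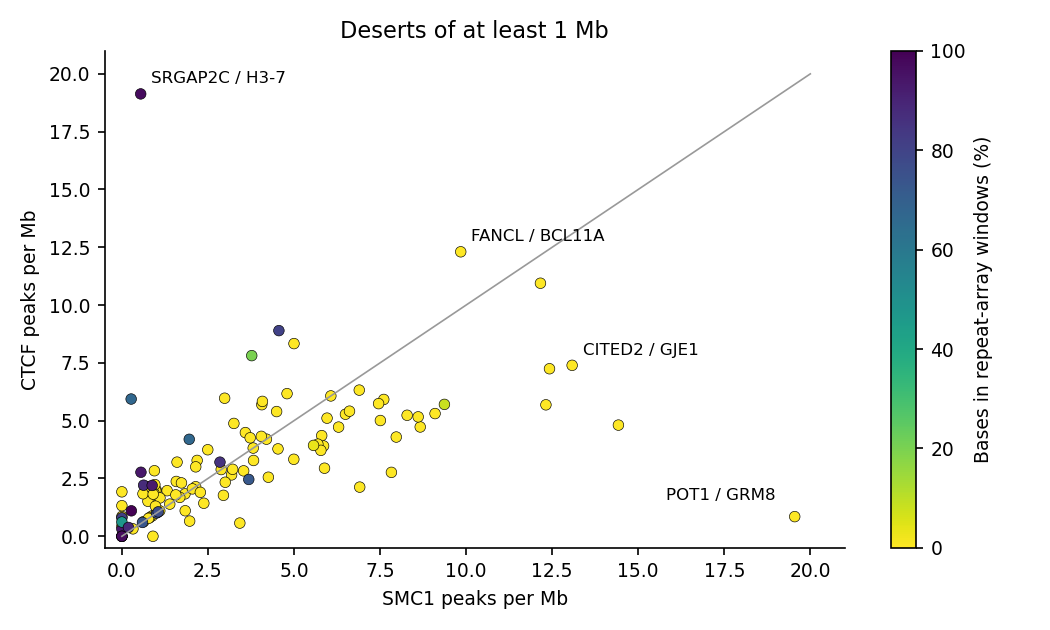
SMC1 peaks per Mb (x axis) against CTCF peaks per Mb (y axis) in the 117 deserts of at least 1 Mb, coloured by the percentage of bases in repeat-array windows; the line marks equal densities. The desert between SRGAP2C and H3-7 stands apart at 19.1 CTCF and 0.547 SMC1 peaks per Mb and is almost all array, and the one between POT1 and GRM8 at 0.850 and 19.5 holds none.

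Desert peaks were rarely at loop anchors. Of desert SMC1 peaks 1.85% overlapped an anchor of the list labelled SMC1, against 22.6% of the others and 22.3% of all, and 19.8% overlapped one of the list labelled CTCF, against 51.9% and 51.4%. Of desert CTCF peaks 16.6% overlapped an anchor of the list labelled CTCF, against 56.4% and 55.5%, and 1.74% one of the list labelled SMC1, against 28.9% and 28.4%. The desert share was lower on 22 of 22 chromosomes in all 4 combinations. Without repeat-array windows 18.8% of desert CTCF peaks were at a CTCF-labelled anchor, against 56.3% of the others. Beyond 1 Mb no peak of either list overlapped an anchor labelled SMC1.

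The gap was nearly as wide between peaks of like strength. Weighted to the -log10 q deciles of the desert peaks, 20.5% of the other SMC1 peaks and 54.5% of the other CTCF peaks were at an anchor of the list with their label. For the list with the other label the weighted shares were 49.7% and 26.4%. Among peaks with a -log10 q of at least 50, 56.0% of desert SMC1 peaks against 88.7% of others were at an anchor labelled CTCF, and 37.4% of desert CTCF peaks against 82.1% of others. At an anchor labelled SMC1 were 8.15% against 53.7% of these SMC1 peaks and 4.84% against 49.2% of these CTCF peaks. Desert CTCF peaks at a CTCF-labelled anchor had a median fold enrichment of 9.45 (8.64 to 10.2), and 96.7% of these 210 were on an SMC1 peak.

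Loops with both ends in a desert were rarer still than the peaks. They made up 0.0144% of the list labelled SMC1 (4 loops, interval 0.00560 to 0.0370%) and 0.126% of the list labelled CTCF (100 loops, 0.104 to 0.153%). The 100 loops lay in 36 deserts and used 144 distinct anchors, and the 3 richest deserts held 35 of them. Both anchors of a desert loop necessarily lie in the same desert, since a coding start between 2 deserts keeps them 1 Mb or more apart and the longest loop called spanned 1 Mb. Short deserts therefore limit the span.

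The 100 CTCF-labelled desert loops had a median span of 140 kb (115 to 190) against 125 kb for the other loops, and a median of 19 read pairs (18 to 22) against 23. Observed over expected, the read pairs relative to the number the loop caller expected for that distance and local signal, had a median of 5.03 (4.30 to 6.28) against 4.03 (4.01 to 4.04). Among loops of 100 to 300 kb the values were 6.04 (4.84 to 7.85) for 48 desert loops against 4.54. Among loops with at least the list's median of read pairs the order turned, at 3.20 for 34 desert loops against 3.84. The 4 SMC1-labelled loops spanned 10 to 50 kb, had 13 to 28 read pairs and ratios of 3.19 to 3.81.

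Since the list labelled SMC1 held only 4 desert loops, few partners were possible. Within 15 kb at both anchors, 4 of the 100 CTCF-labelled desert loops (1.57 to 9.84%) had a partner in the list labelled SMC1, against 53.7% of the others and 53.6% of all. In the other direction 3 of the 4 SMC1-labelled desert loops had one, against 91.7% of the others and 91.7% of all. Peaks were present at most anchors, since 79.0% of the 100 loops had an SMC1 peak at both ends and 54.0% a CTCF peak at both, against 70.8% and 47.7% of all. Of the 4 SMC1-labelled desert loops 1 had an SMC1 peak at both ends and 1 a CTCF peak at both, against 67.3% and 57.8% of all. An anchor overlapped a lncRNA gene in 53.0% of the 100 loops and 1 of the 4, against 37.0% and 36.9% of all.

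By the best match anywhere in each anchor, desert loops with a motif at both anchors were more often convergent. This was so in 35 of 60 CTCF-labelled desert loops, or 58.3% (45.7 to 69.9%), against 44.7% of the others and 44.7% of all, and divergent pairs, pointing away from each other, made up 5.00% against 9.89%. The interval of the desert share lay just above the value of the rest, but it counts loops as independent. Desert loops shared anchors and the 3 richest deserts held 35 of the 100, so the interval is likely too narrow. With the desert holding the most loops left out the desert share was 64.6% of 48. An anchor of 5 kb can hold several matches, so the best match need not be the bound one. With only matches within 100 bp of a CTCF summit, 4 desert loops had a motif at both anchors and the convergent difference was 18.2 points (-26.7 to 38.7). Of the 4 SMC1-labelled loops, all with motifs at both ends, 1 was convergent, against 45.3% of all, and 2 divergent.

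A loop with many read pairs lay between NCAM2, a neural adhesion gene, and MRPL39, a mitochondrial ribosome gene. It joined chr21:24895001-24900000 to chr21:25035001-25040000 over 140 kb with 86 read pairs against 10.4 expected, a ratio of 8.31, and had no partner within 15 kb under the SMC1 label. That desert of 3.33 Mb held 22 SMC1 peaks, 18 CTCF peaks and 10 loops. The longest desert loop spanned 625 kb between PCDH9 and KLHL1 on chromosome 13 and had 14 read pairs where 1.27 were expected. The highest ratios, 15.9 and 14.2, belonged to loops of 585 kb between TENM4 and FAM181B and of 440 kb between KCNJ3 and NR4A2, with 24 and 23 read pairs.

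The SMC1-labelled desert loops were short. A loop of 10 kb between INSC and SOX6 had 28 read pairs where 7.34 were expected, and a loop of 10 kb between MDGA2 and RPS29 had 27 where 8.47 were. The best sites at the ends of both pointed away from each other.

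More loops left deserts than stayed in them. One end lay in a desert in 24 SMC1-labelled loops and 315 CTCF-labelled loops, and in 13 and 56 of these the other end lay within 1 kb of a coding start, as at least 1 end did in 47.0 and 41.4% of all loops. The rule itself forces such a loop to span about 500 kb or more, and they had medians of 695 and 685 kb. Their median observed over expected was 8.53 (6.42 to 12.7) and 8.31 (7.90 to 8.97). Promoter loops of at least 500 kb with no desert end had 6.60 (6.16 to 6.97) and 7.07 (6.73 to 7.42). Their median spans were shorter, at 575 and 595 kb, so the groups were not matched in span. Among loops of 500 kb and more with 1 desert end and no promoter, 98 CTCF-labelled ones had 8.88 (8.24 to 9.63). The 1 SMC1-labelled loop of that kind had 8.26. The sites were convergent in 28 of 48 CTCF-labelled desert-to-promoter loops, 58.3% (44.3 to 71.2%), against 58.4% (54.6 to 62.2%) of long promoter loops elsewhere.

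The desert-to-promoter loops reached 8 genes under the SMC1 label and 30 under the CTCF label, and all 8 were among the 30. NKX3-2, a homeobox gene of skeletal development, was reached most often, by 4 and 7 loops. CITED2 was reached by 5 CTCF-labelled loops and MYC by 4. ALCAM, an adhesion molecule gene, COL12A1, a collagen gene, and MARCKS, which encodes a membrane-bound actin regulator, were reached by 3 each. BDNF, EPHA4 and IRS1, which encode a neurotrophin, an ephrin receptor and an insulin receptor substrate, were reached in both lists. Whether these contacts matter for the genes' expression is not shown by lists that hold none.

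The loop with the most read pairs among them joined chr4:12850001-12855000 to the NKX3-2 promoter over 695 kb. It had 82 read pairs against 3.27 expected in the list labelled CTCF, a ratio of 25.1, and 30 against 2.37 in the list labelled SMC1, a ratio of 12.7. A second desert anchor at chr4:12725001-12730000, 820 kb away, had 59 read pairs against 2.70 and 20 against 2.34. The neighbouring bin at chr4:12730001-12735000 had 22 read pairs against 1.57 in the list labelled SMC1.

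The loop to MARCKS over 550 kb had 55 read pairs against 5.12 in the list labelled CTCF, a ratio of 10.7, and 42 against 2.82 in the list labelled SMC1, a ratio of 14.9, the most among the 13 desert-to-promoter loops of that list. The loop to EPHA4 over 885 kb from a lncRNA intron had 54 against 2.70 in the list labelled CTCF, a ratio of 19.97. From the desert downstream of MYC a loop of 585 kb had 53 against 8.998 in the list labelled CTCF, and one of 530 kb had 19 against 2.94 in the list labelled SMC1. At both MYC loops the best sites of the 2 ends lay on the minus strand, whereas the loops to MARCKS, to EPHA4 and to NKX3-2 over 695 and 820 kb were convergent.

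**Figure D4:**
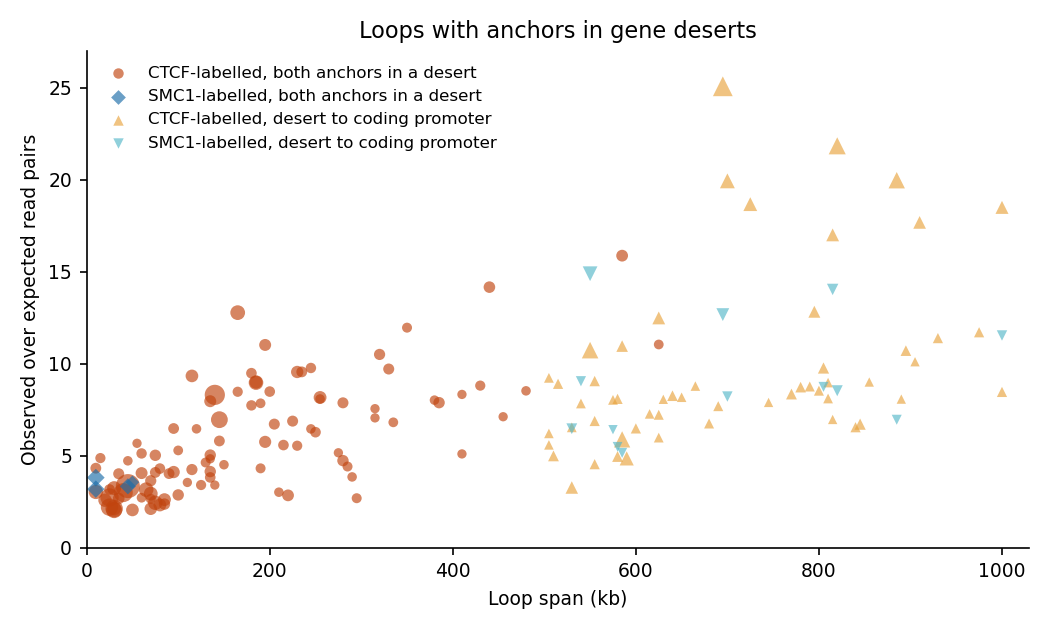
Observed over expected read pairs (y axis) against loop span in kb (x axis) for loops with both anchors in a desert (circles and diamonds) and loops from a desert to a coding promoter (triangles), with symbol area growing with read pairs. Desert loops lie mostly under 300 kb and reach a ratio of 15.9, while promoter loops start at about 500 kb by construction and reach 25.1 at the NKX3-2 promoter.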

How the data were processed

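Per the labels and the study's methods, the authors mapped the reads with BWA-MEM (hg38), filtered on mapping quality, removed duplicates, ran MACS3 3.0.1 without an input sample (q-value limit 0.01), and called loops between 5 kb bins with MAPS from pooled replicates. bcl2fastq 2.17 and deepTools are also named in the submitters' processing notes. The deposited peak lists give the fold enrichment as a ratio to local background and the -log10 q-value per peak. The deposited loop lists give read counts per bin pair and, as a model signal, the count that the authors' regression expected. A display score, which the authors' peak caller derived from the q-value, and the deposited p-value and false discovery rate columns were not used further. The larger loop list carries the CTCF label although the study's text ties the larger number to SMC1. With the peak counts at the anchors, this makes it most likely that the loop labels are exchanged.

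Distances ran from summits and anchor edges to 75398 coding starts of GENCODE 44. The motif was learned by expectation maximisation (60 rounds) and scanned on both strands. Shares have Wilson and densities exact Poisson intervals at 95%, which cover counting error only and count peaks and loops as independent. The lists carry no sequencing depth, and the study gives more total reads for SMC1 than for CTCF, so depth and target cannot be told apart. Scripts (Python with NumPy, SciPy and Numba) were tested on simulated data. The members, lists and the repeat-array rule were chosen with earlier results of these data known. Named items were the 8 longest deserts, the 5 strongest desert peaks per list (and, chosen after seeing the data, the 5 strongest outside arrays), the 5 desert loops and 5 desert-to-promoter loops with the most read pairs per list, the longest loop, 2 peaks either side of the limit and 3 lncRNA genes per list, ties kept. Base coverage of soft-masked repeats was not used here. Some items that the rule names are not reported here.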

Additional observations from a re-analysis of the deposited data

How the results depend on the processing

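No paired analysis was possible because each target has 1 list pooled over both replicates, and for the same reason leaving out a replicate was not run. Leaving out windows of soft-masked repeats was not run, since the genome used here is all in capitals. The densities stayed lower in deserts, and peaks at anchors rarer, under each alternative run for them.

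With a limit of 250 kb there were 4746 SMC1 and 3410 CTCF desert peaks and 57 SMC1-labelled and 474 CTCF-labelled desert loops, and with 1 Mb 344, 399, 0 and 14. Counting lncRNA starts too left 62 SMC1 and 122 CTCF peaks. Adding chromosome X added no loop. The density ratio was 0.0793 (SMC1) and 0.111 (CTCF) with unknown bases counted, 0.155 for CTCF peaks with a -log10 q of at least 5, and 0.126 and 0.160 without repeat-array windows. For CTCF peaks with a -log10 q of at least 10 the ratio of medians, desert to rest, was 1.06 for fold enrichment and 0.724 for -log10 q.

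The difference in overlap with the other target, desert minus rest, was 11.4 points for SMC1 with both lists at a -log10 q of at least 10 and 11.4 against the weighted rest. For CTCF it was -6.92 points with summits within 150 bp, -4.01 with overlap of at least 50% of each peak, and -5.11 without repeat-array windows. At anchors, with the loop lists exchanged, it was -32.1 points (SMC1) and -27.2 (CTCF), and it was -27.8 and -44.5 at a -log10 q of at least 10, -18.7 for SMC1 against the weighted rest and -37.5 for CTCF without repeat-array windows.

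Motif differences near the summit depended on the settings. For SMC1 the 0.429 points turned to -5.28 with a minimum of 7 bits, -0.433 within 100 bp and -1.41 anywhere in the peak. For CTCF the -2.95 points became -10.9, -4.97 and -5.15, and 0.00267 at 13 bits.

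For CTCF-labelled loops with at least the median read pairs the ratio of medians turned to 0.816 for span and 0.834 for observed over expected, which was 1.73 in deserts of at least 2 Mb. The difference found in the other list was -22.2 points without tolerance, and the convergent difference 40.8 points at 13 bits (14 loops). For the 4 SMC1-labelled loops the ratio of read pairs turned to 0.844 at the median or above, and the convergent difference to 48.9 points at 13 bits (1 loop) and -45.3 without the desert holding the most loops (2 loops). The cause of these shifts was not tested. The alternatives on repeat-array windows, chromosome X, weighting, whole-peak motifs and the desert with the most loops were chosen after seeing the data.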

Other observations

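Among deserts of at least 1 Mb the one with the most CTCF peaks per Mb, between SRGAP2C and H3-7 around the centromere of chromosome 1, held 70 CTCF peaks and 2 SMC1 peaks, and all but 0.106 Mb of its 3.66 Mb lay in repeat-array windows. Of its 70 CTCF peaks 2 overlapped an SMC1 peak. The stretch of chromosome 22 before OR11H1 had 22 CTCF peaks and 1 SMC1 peak, with 1.22 of its 3.71 Mb outside such windows. These 2 deserts were chosen after their values were seen.

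Not all deserts beside a centromere were without loops. The desert between ZNF254 and UQCRFS1 on chromosome 19, with 72.6% of its bases in repeat-array windows, held 5 CTCF-labelled loops of 12 to 42 read pairs over 9 anchors. Its 15 SMC1 and 10 CTCF peaks lay within 935 kb, and each of the 10 CTCF peaks overlapped an SMC1 peak. The desert peaks farthest from a coding start lay together on chromosome 21, an SMC1 peak at chr21:5103243-5104665 with a fold enrichment of 12.7 and its summit 5417769 bp from TPTE, and a CTCF peak on it with 5.68 and its summit 5417978 bp away.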
